A study of Mus musculus with 22 samples.

Results

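Histone H3 carrying lactyl-lysine at position 18 (H3K18la) was compared with H3 acetylated at lysine 9 (H3K9ac) in the telencephalon, the embryonic forebrain region that gives rise to the cerebral cortex and basal ganglia. The comparison used the peak lists of 2 H3K18la and 2 H3K9ac libraries, 4 of the 22 samples of the study, restricted to chromosomes 1 to 19 and X. All came from ICR mice, an outbred strain, at embryonic day 13.5 (E13.5), with no genotype or treatment named in the labels. Chromatin was prepared by native immunoprecipitation, without crosslinking, with the PTM Biolab antibodies PTM-1406 for H3K18la and PTM-156 for H3K9ac. Each library is 1 of a pair that the design text calls biological replicates. The labels do not state how many embryos went into a library or whether they were pooled. The other libraries of the series served as further readouts: ATAC-seq of open chromatin, immunoprecipitation of crotonylated lysine 9 (H3K9cr) and RNA-seq at E13.5, and the lists of the same 2 marks at E16.5. The 4 lists merged into 85811 regions, each an interval in which peaks of any list overlapped by at least 1 bp.

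Acetyl groups on histone H3 lysines are written by acetyltransferases such as EP300 and CREBBP, removed by histone deacetylases and sirtuins, and read by bromodomain proteins, and H3K9ac is a textbook mark of active promoters. Lysine lactylation is a bulkier acyl mark linked to the cellular lactate pool made by glycolysis, and acetyltransferases and deacetylases can also add and remove it. H3K18la has been described at promoters and at enhancers, the regulatory elements that lie away from gene starts. The telencephalon at E13.5 holds dividing radial glia, intermediate progenitors and the first neurons.

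Promoter sequences are shown for 6 genes that carry the classes of the comparison. Eomes, a transcription factor of intermediate progenitors, was called by both marks, as was Ythdf1, a reader of methylated RNA. Of the shared regions at gene ends, the one at Ythdf1 had the widest gap in rank in favour of H3K9ac. Mark2, a microtubule-affinity kinase, and Exoc1, an exocyst subunit, were the strongest regions called by H3K9ac only. Lmo3, a LIM-domain transcription cofactor, and P2ry12, a purine receptor of microglia, had H3K18la only at their start sites. Each line gives the 250 bases before the start site, 5′ to 3′ on the gene's strand, from RefSeq on GRCm38.p6, with every CG dinucleotide in capitals.
Eomes: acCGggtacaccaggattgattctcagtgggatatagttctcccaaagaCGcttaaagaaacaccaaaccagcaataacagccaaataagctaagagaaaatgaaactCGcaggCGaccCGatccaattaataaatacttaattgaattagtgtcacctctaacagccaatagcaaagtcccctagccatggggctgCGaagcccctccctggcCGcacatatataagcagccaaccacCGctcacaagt
Ythdf1: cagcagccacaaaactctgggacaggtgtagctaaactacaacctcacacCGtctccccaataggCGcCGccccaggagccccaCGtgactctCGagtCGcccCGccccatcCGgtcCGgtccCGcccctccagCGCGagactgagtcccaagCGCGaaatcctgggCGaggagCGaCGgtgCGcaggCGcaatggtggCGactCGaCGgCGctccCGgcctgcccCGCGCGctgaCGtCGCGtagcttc
Mark2: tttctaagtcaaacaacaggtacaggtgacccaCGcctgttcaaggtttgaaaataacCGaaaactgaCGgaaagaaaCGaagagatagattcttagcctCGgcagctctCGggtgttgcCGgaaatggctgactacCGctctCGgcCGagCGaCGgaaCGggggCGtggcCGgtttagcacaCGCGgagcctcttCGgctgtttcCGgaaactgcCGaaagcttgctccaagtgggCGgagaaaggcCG
Exoc1: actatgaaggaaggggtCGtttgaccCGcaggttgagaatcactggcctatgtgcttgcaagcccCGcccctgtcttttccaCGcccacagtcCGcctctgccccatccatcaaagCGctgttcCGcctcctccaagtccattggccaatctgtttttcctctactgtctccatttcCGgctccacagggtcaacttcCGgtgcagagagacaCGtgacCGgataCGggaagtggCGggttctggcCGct
Lmo3: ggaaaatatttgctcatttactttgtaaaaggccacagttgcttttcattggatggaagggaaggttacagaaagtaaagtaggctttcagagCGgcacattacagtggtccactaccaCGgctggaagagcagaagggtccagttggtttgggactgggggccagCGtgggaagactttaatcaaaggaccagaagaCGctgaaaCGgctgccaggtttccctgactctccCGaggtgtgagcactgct
P2ry12: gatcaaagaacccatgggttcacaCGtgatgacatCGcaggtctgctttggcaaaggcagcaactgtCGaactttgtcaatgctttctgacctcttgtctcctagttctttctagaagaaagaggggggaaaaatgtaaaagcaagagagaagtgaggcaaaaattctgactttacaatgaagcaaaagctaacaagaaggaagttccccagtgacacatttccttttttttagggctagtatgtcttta

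The Eomes bases lie at chr9:118477939-118478188 on the plus strand and hold 8 CG dinucleotides. Those of Ythdf1 (chr2:180920937-180921186, minus strand) hold 30. Those of Mark2 (chr19:7341861-7342110, minus strand) hold 22, and those of Exoc1 (chr5:76529108-76529357, plus strand, the last of 4 listed start sites) hold 14. The other 3 start sites of Exoc1 have 8, 9 and 10, and a second entry for Mark2, called in no list, has 6. Of the H3K18la-only promoters, Lmo3 (chr6:138581969-138582218, minus strand) holds 6 and P2ry12 (chr3:59262986-59263235, minus strand) holds 3. The classes given here are of single promoter entries, and a promoter in 1 class can belong to a gene or region in another. Counted by gene, with start sites and 2000 bp, H3K9ac only held 747 genes and H3K18la only 133. Over all listed promoters, the median number of CG in these 250 bases was 17 in the 8821 that both marks called, 16 in the 1756 called by H3K9ac only, 4 in the 72 called by H3K18la only and 2 in the 8286 called in no list. The median of all 21045 promoters was 10, and 93.6% held at least 1 CG. The motif searched was CG, which reads the same on both strands. At least 10 CG stood in 81.7% of promoters called by both marks, 73.2% of those of H3K9ac alone and 12.5% of those of H3K18la alone, against 50.6% of all promoters.

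The H3K18la lists were longer and their peaks lay farther from gene ends than those of the H3K9ac lists. On the chromosomes used, the H3K18la lists held 73359 and 69145 peaks and the H3K9ac lists 37305 and 34520. The H3K18la peaks covered 72.3 and 68.8 Mb and the H3K9ac peaks 45.9 and 45.4 Mb. The median distance from a peak summit to the nearest end of a protein-coding gene was 34735 and 31321 bp for H3K18la and 8439 and 7365.5 bp for H3K9ac. A gene end is either boundary of a RefSeq gene. Summits within 2000 bp of a gene end made up 18.7% and 20.4% of the H3K18la lists and 37.2% and 39.0% of the H3K9ac lists. Start sites gave the same order, with 15.7% and 17.2% of H3K18la summits and 32.0% and 33.8% of H3K9ac summits within 2000 bp. The 2 lists of a mark lay close together and the marks did not overlap in any of these measures. With 2 lists a mark, the smallest two-sided p of an exact permutation test is 0.333, which each of these measures had, so that test cannot pass a threshold of 0.05.

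Width depended on how deep into the lists the comparison went. The median peak was 635 and 648 bp wide for H3K18la and 899 and 989 bp for H3K9ac. When each list was limited to its 34520 peaks of highest −log10 q, the length of the shortest list, the order was the opposite: 1239 and 1220.5 bp for H3K18la against 991 and 989 bp for H3K9ac. The difference in place was smaller at equal list length but kept its direction, with 27% and 29.3% of H3K18la summits and 39.4% and 39.0% of H3K9ac summits within 2000 bp of a gene end.

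**Figure D1:**
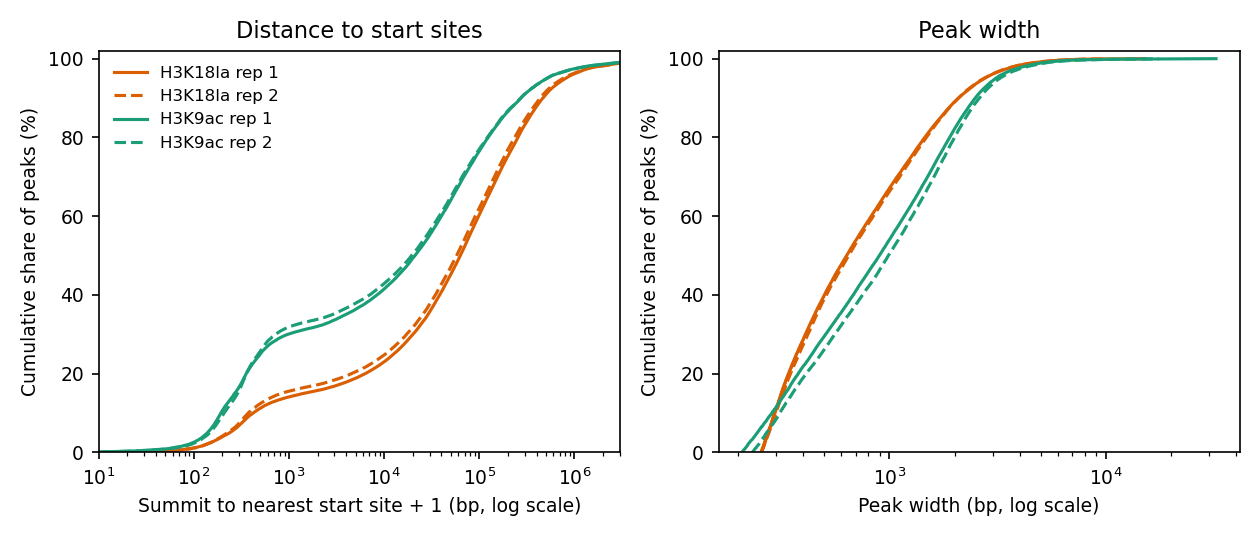
Cumulative share of peaks (%) against the distance from summit to nearest start site (left, bp, log scale) and against peak width (right, bp, log scale) in each E13.5 list. Orange lines are the H3K18la lists and green lines the H3K9ac lists, replicate 1 solid and replicate 2 dashed; 15.7% and 17.2% of H3K18la summits against 32.0% and 33.8% of H3K9ac summits lie within 2000 bp of a start site.

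Of the 85811 regions, 24540 were called in all 4 lists, 19553 in both H3K18la lists and neither H3K9ac list, and 2307 in both H3K9ac lists and neither H3K18la list. The remaining 39411 had another combination, and 29298 of these stood in 1 H3K18la list alone. Counted from each mark, 51.2% of the 50161 regions found in both H3K18la lists overlapped a region found in both H3K9ac lists, and 85.4% of the 29653 H3K9ac regions overlapped an H3K18la region. Lists of the same mark shared more bases than lists of different marks: the Jaccard index, shared bases over all bases covered, was 0.603 between the H3K18la lists, 0.765 between the H3K9ac lists and 0.346 to 0.382 across marks. The imbalance of the single-mark classes followed list length. At 34520 peaks a list, 4817 regions were called by H3K18la only and 5645 by H3K9ac only, and the shares were 72.9% of H3K18la regions and 69.4% of H3K9ac regions. The H3K18la-only count also rested on needing both H3K18la lists: it was 34763 without H3K18la replicate 1 and 39558 without replicate 2. The H3K9ac-only count was 3585 without H3K18la replicate 2 and 4150 without H3K9ac replicate 2.

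The region classes differed in place, and here equal list length changed little. Regions with a start site within 2000 bp, counted on the 19 chromosomes with start-site entries, made up 37.9% of the regions of both marks, 50.9% of the H3K9ac-only regions and 1.5% of the H3K18la-only regions. Stretches within 2000 bp of a start site make up 2.83% of those chromosomes. At 34520 peaks a list the 3 shares were 37.3%, 48.8% and 1.53%. The median distance from region centre to the nearest start site was 17391.5 bp for both marks, 1993.5 bp for H3K9ac only and 110118 bp for H3K18la only. Protein-coding gene bodies overlapped 71.5% of the regions of both marks, 82.3% of the H3K9ac-only regions and 42.2% of the H3K18la-only regions, against 39.1% of all bases on the chromosomes.

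H3K18la-only regions overlapped gene bodies at close to the genome's share and lay near start sites below it. The measures are unlike: a region counts at 1 bp of overlap, while the genome's share counts bases, so wide regions reach a feature more often. Merged regions of 4 lists are wider by construction than those of 2: the median was 2050 bp for both marks, 778 bp for H3K18la only and 717 bp for H3K9ac only. Among regions 500 to 1000 bp wide, 24.8% of those of both marks, 49.2% of H3K9ac-only and 1.53% of H3K18la-only regions had a start site within 2000 bp. Fold enrichment is the authors' value of each peak over its background, and was used only to rank or select within a list. Among regions with a mean H3K18la fold enrichment of 5 to 7, a start site lay within 2000 bp of 38.1% of the 6008 regions that H3K9ac also called and of 1.35% of the 4687 that it did not. Among regions with a mean H3K9ac fold enrichment of 5 to 10, the share was 7.09% of the 6751 regions that H3K18la also called and 51.1% of the 1068 that it did not. The H3K9ac band kept 291 of the 8055 shared regions with a start site inside, whose median H3K9ac fold enrichment was 43.1 and 39.8. The low share of the shared regions in this band thus cannot be told apart from the choice of band. Width was not matched there, with medians of 1913 bp for both marks and 687.5 bp for H3K9ac only.

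The strongest H3K18la-only regions lay far from start sites and the strongest H3K9ac-only regions on them. Of the 6 H3K18la-only regions with the highest fold enrichment, the one nearest to Cul3, a ubiquitin ligase scaffold, was at chr1:80407964-80409669 and its centre lay 68126 bp from the gene; its fold enrichment was 13.7 and 14.4. One near Cbln4, a synaptic organizer, was at chr2:172002951-172006860, 31431 bp from the gene end, with 15.8 and 11.5. The region nearest to Enc1, an actin-binding gene of young neurons, was 284775 bp away, with 12.7 and 14.9. The other 3 were nearest to Gm35364, Micall2 and Gucy2e, 12623 to 62059 bp away. None of the 6 had a start site inside, and 1, near Cul3, was open in both ATAC lists.

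All 6 of the strongest H3K9ac-only regions held a start site. Mark2 (chr19:7339375-7342584) had fold enrichments of 41.9 and 82.1 and Exoc1 (chr5:76529290-76530341) 66.1 and 57.6. The others were Dyrk1a, a dosage-sensitive kinase, Vps25, a subunit of the ESCRT sorting machinery, Rbm17, a splicing factor, and Sec22b, a vesicle fusion protein, with 44.0 to 66.3 over both lists. Their genes were expressed at 32.2 to 138 CPM (counts scaled to a library total of 1e+06) in the 2 E13.5 RNA libraries. None of the 6 regions was called by both H3K18la lists at E16.5, and all 6 were called by both H3K9ac lists there. Over all H3K9ac-only regions these shares were 11.1% and 91.9%.

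Readouts that did not enter the classes separated them as well. ATAC peaks of both lists overlapped 50% of regions of both marks, 21.4% of H3K9ac-only and 4.58% of H3K18la-only regions. The H3K18la-only share was 11.6% at 34520 peaks a list and 7.48% with a −log10 q of at least 5, below the other classes in both settings. In the single ATAC lists the values were 58.4% and 60.4%, 29.1% and 28.1%, and 9.16% and 9.74%. H3K9cr, the crotonyl form of the acetylated residue, was called in both lists at 83.6% of regions of both marks, 85.7% of H3K9ac-only and 0.317% of H3K18la-only regions. Of the 19553 H3K18la-only regions, 62 had H3K9cr in both lists. Distal regions are those with no gene end or start site within 2000 bp. Among them ATAC overlapped 31.8% of 12216 regions of both marks, 12.3% of 668 H3K9ac-only and 4.57% of 18126 H3K18la-only regions. H3K9cr overlapped 70.4%, 72.6% and 0.325%. Many distal regions lay inside genes: protein-coding gene bodies overlapped 50.4%, 57.0% and 41.8% of them in the same order. With 1 list left out, ATAC overlapped 2.04% of H3K18la-only regions without H3K18la replicate 1, 2.24% without replicate 2, and 13.4% of H3K9ac-only regions without H3K9ac replicate 2. H3K9cr overlapped 0.197% of H3K18la-only regions without H3K18la replicate 2, 1.24% without H3K9ac replicate 1 and 0.821% without H3K9ac replicate 2.

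The classes also differed in how far they were called again at E16.5. Both E16.5 H3K18la lists overlapped 89.9% of the E13.5 regions of both marks, 43.4% of the H3K18la-only regions and 11.1% of the H3K9ac-only regions. Both E16.5 H3K9ac lists overlapped 95.3%, 14.0% and 91.9%. The shares called again by the own mark were thus 43.4% for H3K18la-only and 91.9% for H3K9ac-only regions. The E16.5 H3K18la lists differed between themselves there, with 48.1% in replicate 1 and 66.3% in replicate 2.

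**Figure D2:**
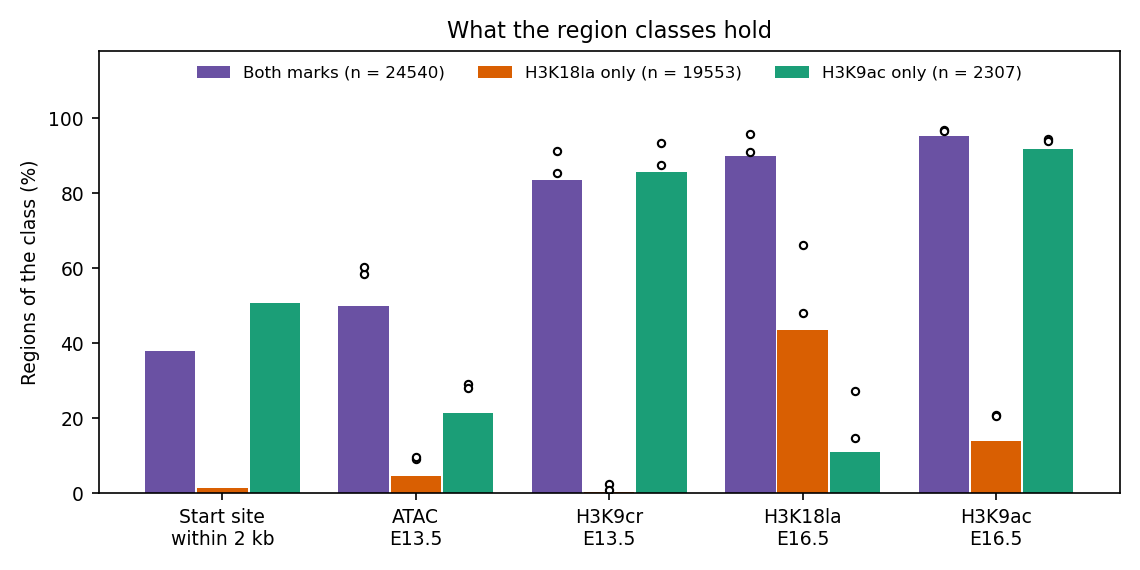
Share of regions (%) in each class that lie within 2000 bp of a start site or are overlapped by both lists of another readout; bars are shares for both marks (purple), H3K18la only (orange) and H3K9ac only (green), and open circles are each single list. H3K9cr covers 83.6% and 85.7% of the 2 classes with H3K9ac and 0.317% of the class without it.

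In the regions that both marks called, H3K18la was about as strong in distal regions as at start sites, and H3K9ac was strong at start sites. For each list the highest fold enrichment in a region was ranked among the 24540 shared regions, from 0 (lowest) to 100 (highest). In the 8055 regions with a start site inside, the median rank was 48.3 and 52.8 in the H3K18la lists and 77.3 and 77.4 in the H3K9ac lists. In the 12216 distal regions it was 53.0 and 50.1 for H3K18la and 28.2 and 28.5 for H3K9ac. The median fold enrichment within the H3K18la lists was 7.31 and 8.42 at start sites and 7.87 and 8.13 in distal regions, and within the H3K9ac lists it was 43.1 and 39.8 at start sites and 7.18 and 6.62 in distal regions. Within whole lists, distal regions stood at the median percentiles 81.8 and 80.1 for H3K18la and 44.6 and 41.1 for H3K9ac, and start-site regions at 79.4 and 81.4 and at 84.7 and 83.6.

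Both H3K18la lists ranked above both H3K9ac lists in 9755 of the shared regions (39.8%), and both H3K9ac lists ranked above in 9700 (39.5%). Of the regions with a start site inside, 9.47% ranked higher in H3K18la and 73.6% in H3K9ac. Of the distal regions, 64.5% ranked higher in H3K18la and 11.6% in H3K9ac. The 3453 regions near a gene end or start site but with none inside lay between, with 21.1% and 59.6%. The split was also seen at matched width: among regions 1000 to 2000 bp wide, H3K9ac ranked higher in 81.4% and H3K18la in 5.26% of the 3020 with a start site inside. Of the 4804 distal ones H3K9ac ranked higher in 16.3% and H3K18la in 50.1%, a smaller share than over all widths. Percentiles within whole lists, which run over more H3K18la than H3K9ac peaks, gave 23.1% and 46.2% at start sites and 83.7% and 3.52% in distal regions. The distal share for H3K9ac was 17.5% without H3K18la replicate 1. Spearman's rho between lists over the 24540 regions was 0.823 for the H3K18la lists, 0.954 for the H3K9ac lists and 0.281 to 0.388 across marks. These regions share libraries, depth and base composition, and the coefficients are descriptions.

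**Figure D3:**
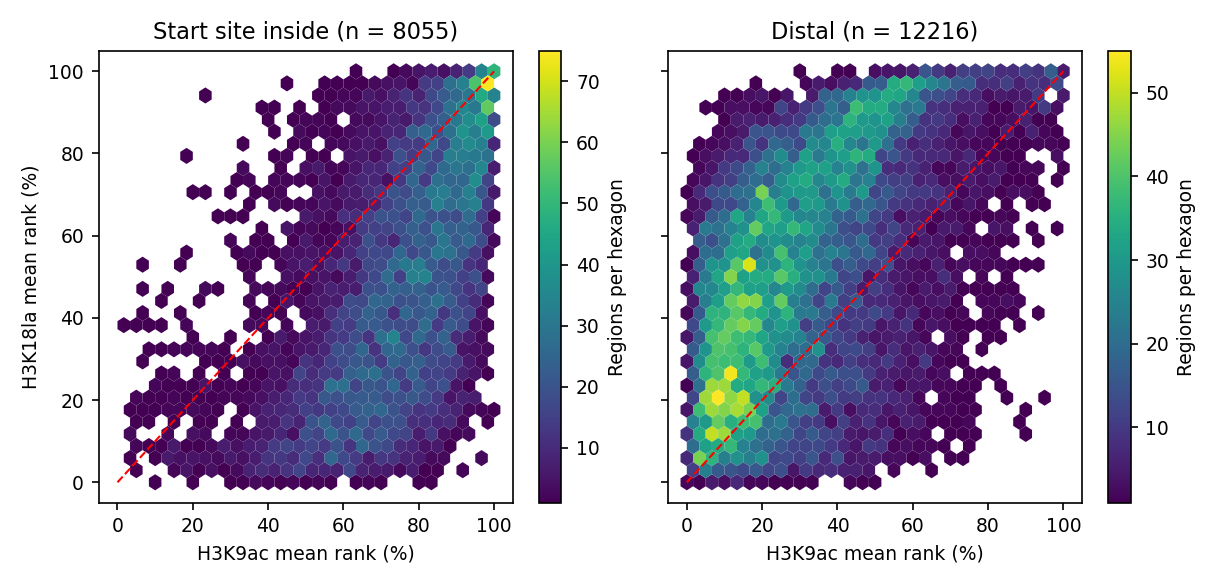
Mean rank of H3K18la fold enrichment (vertical, %) against that of H3K9ac (horizontal, %) in the shared regions with a start site inside (left, n = 8055) and the distal ones (right, n = 12216); colour gives regions per hexagon and the dashed line marks equal rank. Start-site regions lie mostly below the line (73.6% ranked higher by both H3K9ac lists) and distal regions mostly above it (64.5% ranked higher by both H3K18la lists).

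The shared regions at gene ends with the widest rank gap towards H3K9ac lay mostly on start sites of expressed genes. These values were used to choose the regions and are given as description. At Ythdf1 (chr2:180919605-180921558), whose promoter is printed above, the ranks were 8.76 and 1.14 in the H3K18la lists and 96.0 and 95.7 in the H3K9ac lists. In H3K9ac replicate 1 the printed promoter itself had a fold enrichment of 6.20, and the region's highest value, 81.8, lay elsewhere in it. In H3K9ac replicate 2 the promoter had 77.5. With each list left out in turn, the standard deviation of the rank difference was 30.9 at Ythdf1. It was 0.783 to 10.5 at the other regions named for their rank gap. At Ssb, an RNA chaperone, the ranks were 4.52 and 0.770 against 90.6 and 93.5, and at Sfpq, a splicing factor, 10.9 and 2.78 against 98.0 and 94.1. The helicase gene Dhx36 had 3.11 and 10.8 against 98.3 and 93.7. Ankrd52, Ap2s1 (a clathrin adaptor subunit), Nutf2 (a nuclear import factor), Ilrun, Sppl2b (an intramembrane protease) and Med1 (a Mediator subunit) followed, with mean differences of -87.8 to -81.0. Of these 10 regions 9 held a start site, the region at Ilrun being the exception, and the RNA of the nearest genes stood between 28.7 and 912 CPM.

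The widest gaps towards H3K18la lay near genes with little or no RNA at E13.5, with 3 exceptions. The region at Eppin, a protease inhibitor of the male tract, was at chr2:164591646-164592168 and had ranks of 89.7 and 85.7 in the H3K18la lists and 13.7 and 9.28 in the H3K9ac lists; Eppin had 0 counts in both RNA libraries. At Slc26a9, an anion transporter, the ranks were 90.2 and 75.4 against 8.80 and 8.06. The region at Adgrg1, an adhesion receptor with a known role in cortical development, was at chr8:94976544-94979476 and held a start site. The promoter entry of that start site had H3K18la fold enrichments of 3.16 and 17.8. H3K9ac had a peak there in replicate 1 only, at 5.51. The ranks of the whole region were 96.0 and 91.5 against 17.1 and 32.4, and Adgrg1 RNA was at 496 and 505 CPM. Adamts20 (18 and 16.4 CPM) and Fam13a (7.27 and 7.20 CPM) were the other genes above 1 CPM. The remaining regions were nearest to Muc4, Zpld1, Bfsp2, Macc1 and Aqp5, all under 1 CPM in both libraries. All 10 were called again by both H3K18la lists at E16.5, as were 95.4% of all shared regions that ranked higher in H3K18la.

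Distal shared regions that were open in both ATAC lists ranked higher in H3K18la in 69.6% of 3885 cases and in H3K9ac in 12.9%. In the 5521 distal regions with no ATAC peak in either list the shares were 59.2% and 11.2%. Among the fifth of shared regions with ranks most towards H3K9ac, 69.5% held a start site and 100% carried H3K9cr in both lists. In the fifth most towards H3K18la, 1.36% held a start site, 37.0% were open in both ATAC lists, 64.5% carried H3K9cr and 97.4% were called again by H3K18la at E16.5.

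Most genes were called by both marks. A gene counted as called where a peak lay within 2000 bp of either end. Of 21631 protein-coding genes, both marks called 11605 (53.6%), H3K18la alone 252 (1.16%) and H3K9ac alone 944 (4.36%), another combination held for 1639, and no list called 7191. At full list length the order of the single-mark classes was thus the reverse of that of the regions. At 34520 peaks a list, 80 genes were called by H3K18la only and 2521 by H3K9ac only, the same order as for regions at that length. The H3K18la-only count was 383 without H3K18la replicate 1 and 407 without replicate 2, and the H3K9ac-only count was 1532 without H3K18la replicate 2. With start sites in place of gene ends, 17274 genes had an entry, and 9229 were called by both marks, 133 by H3K18la only and 747 by H3K9ac only.

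RNA was detected for most genes of both marks and few of H3K18la alone. At least 1 CPM in both E13.5 RNA libraries, whose totals were 17059544 and 18485855 estimated counts, was reached by 90.9% of genes called by both marks, 56.9% called by H3K9ac only, 21.0% called by H3K18la only and 10.5% called in no list, against 59.5% of all. CPM is not divided by transcript length, so shares of detected genes are given and no levels are compared between genes. With start sites the shares were 93.8%, 57.9%, 10.6% and 6.77%. In bulk tissue, fewer cells of a type and less RNA or fewer marks per cell cannot be told apart.

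In the authors' deposited table, with an adjusted p under 0.05, 28.6% of the genes called by H3K9ac only were higher and 8.43% lower at E16.5 than at E13.5. For genes called by both marks the authors' deposited table gave 19.4% higher and 29.2% lower, and for genes called by H3K18la only 10.9% higher and 2.82% lower. Genes with another combination had 22.6% higher and 8.80% lower, and genes called in no list 4.55% and 1.80%. These shares include genes without detected RNA: of the 248 H3K18la-only genes counted, 52 reached 1 CPM in both E13.5 libraries. Over all 20978 genes of the authors' deposited table with a symbol match, 15.2% were higher and 17.6% lower.

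Most of the listed genes of progenitors, neurons and basic metabolism were called by both marks. Both marks called all 18 radial glia genes, all 16 neuronal differentiation genes, all 20 oxidative phosphorylation genes, all 30 ribosomal protein genes and all 9 histone acyltransferase genes, against 53.6% of all protein-coding genes. They also called 22 of 24 synapse genes, 19 of 20 cell cycle genes and 15 of 17 inhibitory neuron and ventral genes. Fewer were called among upper-layer (7 of 10) and Cajal-Retzius genes (4 of 8). Every member of these lists reached 1 CPM in both E13.5 libraries. Of all 12480 genes that did, both marks called 10375, a higher share than 53.6%. The lists were chosen with results of these data known, so the counts describe these genes only. Tubb3, a tubulin of young neurons, had its strongest peak at fold enrichments of 33.7 and 37.2 in the H3K18la lists and 121 and 135 in the H3K9ac lists, at percentiles from 99.8 to 99.9 of the 4 lists.

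Several progenitor and neuron genes stood higher within 1 mark's list than the other's. Shared regions in general stood higher in the H3K18la lists. Over all 24540 of them the median percentiles were 80.1 and 80.1 for H3K18la and 63.9 and 61.2 for H3K9ac. A gap towards H3K18la is therefore not particular to the genes named here. Eomes was at the percentiles 87.9 and 90.6 of the H3K18la lists and 66.1 and 65.1 of the H3K9ac lists. Neurod2, a factor of neuronal differentiation, was at 98.5 and 92.5 against 80.6 and 81.3. Sox2, a progenitor factor, was at 98.9 and 99 against 91.3 and 91.7. Other neural genes stood the other way: Bcl11b, a factor of deep-layer neurons, was at 74.1 and 80.7 against 87.5 and 92.8, Dlx2, of inhibitory neurons, at 80.9 and 85.9 against 87.0 and 86.5, and Nkx2-1, of the ventral telencephalon, at 9.30 and 41.3 against 76.4 and 61.5. So did genes of basic metabolism. Atp5b, a subunit of ATP synthase, was at 70.7 and 69.3 of the H3K18la lists and 98.3 and 98.5 of the H3K9ac lists, and Rpl6, a ribosomal protein, at 55.6 and 85.9 against 98.0 and 98.6. Pax6, which maintains radial glia, was at 89.5 and 56.5 against 79.4 and 81.5, with overlapping marks. Since the lists differ in length, equal percentiles do not mean equal signal.

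Most genes for enzymes of histone acylation and of lactate were called by both marks, as were 10375 of the 12480 genes at 1 CPM. The 10 deacylase genes and the 24 genes of glycolysis and lactate were all at 1 CPM or more. Ep300 was at the percentiles 89.0 and 94.2 of the H3K18la lists and 98.8 and 96.1 of the H3K9ac lists, and Crebbp at 86.4 and 79.0 against 96.2 and 93.8. Kat6b, an acetyltransferase, was at 99.8 and 99.4 against 95.3 and 94.6. Of the 10 deacylase genes 8 were called by both marks, and Hdac8 and Sirt1 by H3K9ac only, with fold enrichments of 15.4 and 15.2 at Hdac8 and 14.4 and 13.3 at Sirt1. Of 24 genes of glycolysis and lactate, 20 were called by both marks. Pkm, the last kinase of glycolysis, was at 99 and 99.5 of the H3K18la lists and 96.7 and 98.4 of the H3K9ac lists. Ldha, which turns pyruvate into lactate, was called in no list at its gene ends and by both marks at its start site.

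Most of the microglia, erythroid and Hox genes listed were called in no list. Over all protein-coding genes 33.2% were called in no list, 1.16% by H3K18la only and 4.36% by H3K9ac only. Of 13 microglia genes 8 were called in no list, and H3K18la alone called P2ry12 and C1qa. P2ry12 RNA was at 7.05 and 8.81 CPM and its peaks had fold enrichments of 5.20 and 5.85; C1qa was at 6.33 and 4.22 CPM with 11.2 and 7.74. H3K9ac alone called 3 of 7 pericyte genes, Kcnj8, Abcc9 and Des. Of 10 endothelial genes 6 were called in no list, Slc2a1 and Mfsd2a by both marks, Flt1 in another combination and Kdr, a VEGF receptor, by H3K9ac only. Kdr had fold enrichments of 5.94 and 5.44 and RNA at 26.5 and 32.8 CPM. Of 13 erythroid genes 10 were called in no list, among them Hba-a1 (966 and 949 CPM) and Hbb-y (312 and 367 CPM). Whether reads could be placed uniquely at the globin genes was not tested. Of 39 Hox genes, which pattern the body axis behind the forebrain, 29 were called in no list, and none of the 39 reached 1 CPM in both libraries. Of all genes called in no list, 10.5% reached it. Hoxd10 and Hoxd11 were called by H3K18la only and Hoxa9 by H3K9ac only. Hoxd10 and Hoxd11 overlap and had the same fold enrichments, 6.66 and 4.91, so they are not separate calls. At 34520 peaks a list Hoxd10 and Hoxd11 were each called in 1 list, and with a window of 1000 bp Hoxd10 and Hoxa9 were called in none.

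**Figure D4:**
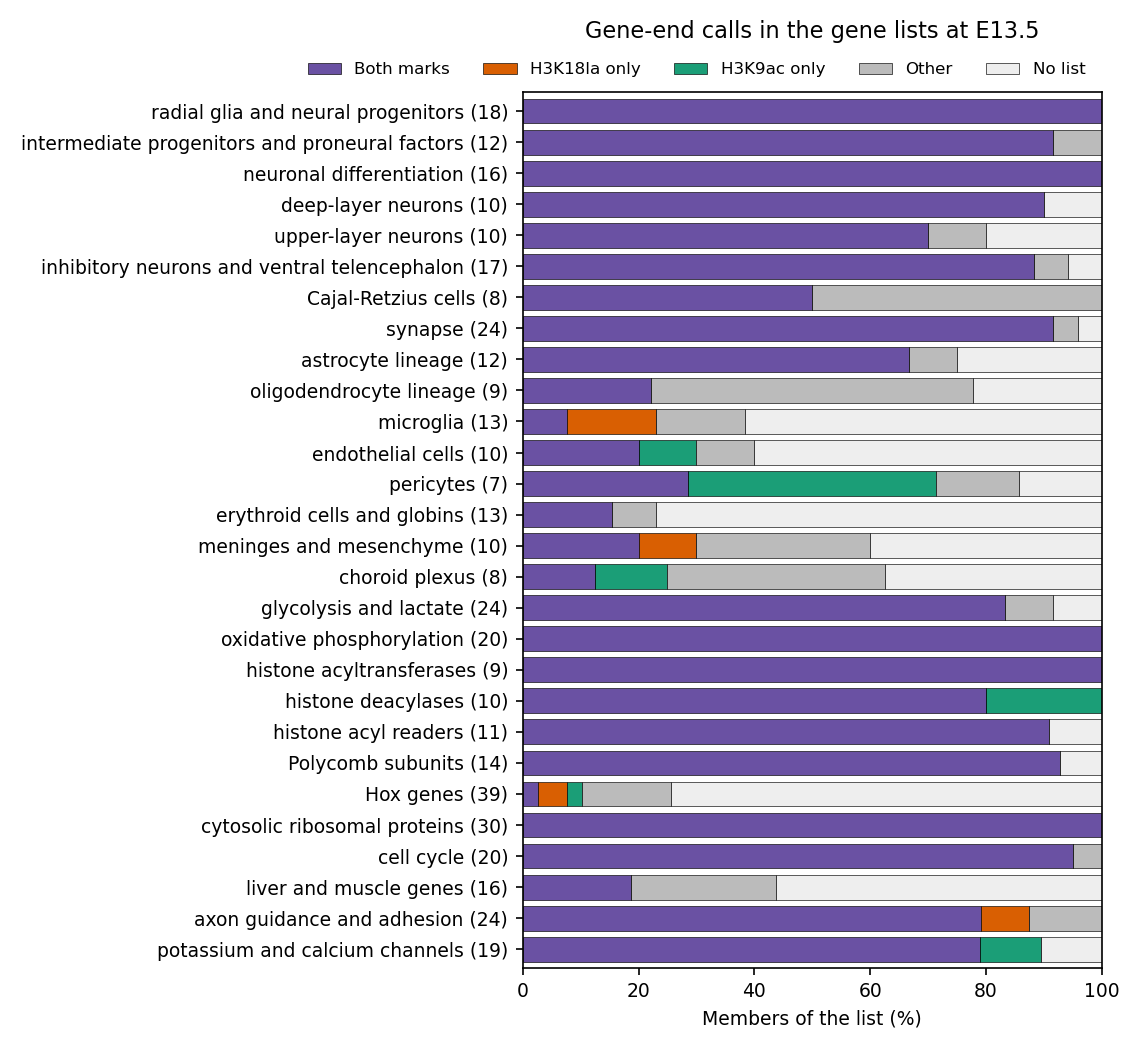
Share of the members of each gene list (%, number of members in brackets) by the class of their gene-end calls at E13.5: both marks (purple), H3K18la only (orange), H3K9ac only (green), another combination (grey) and no list (light). Radial glia, neuronal differentiation, oxidative phosphorylation, acyltransferase and ribosomal lists are called by both marks throughout, and 29 of 39 Hox genes by no list.

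For expressed genes with 1 mark, the class often differed between the gene rules. Of the 6 H3K18la-only genes with the most RNA, Lmo3 (81.2 and 81.4 CPM) had the same class with start sites, with fold enrichments of 7.70 and 7.02 at its gene ends, while Adgrg1, Trim2, Tacc2 and Stag1 were called by both marks at a start site and Nectin1 had no entry. Among the H3K9ac-only genes with the most RNA, Eif3c, a translation initiation subunit at 272 and 273 CPM, had the same class, with 24.4 and 39.4. Whether reads could be placed uniquely at Eif3c was not tested. Uba1, Csnk1e and Abr were called by both marks at a start site, and Stox2 had another combination. RefSeq gene boundaries can lie far from the start site used in a tissue, and the class of a single gene depends on the rule.

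The H3K18la-only regions beyond gene ends were unevenly spread over gene groups. Regions were taken here with a centre more than 2000 bp from a gene end, 19018 of H3K18la only and 14420 of both marks. Of these, 56.9% were H3K18la only. This set is wider than the distal class above, and a region in it can still reach a gene end or hold a start site. Among those nearest to the 24 axon guidance and adhesion genes, 399 were H3K18la only and 130 of both marks (75.4%). The share was 81.8% near the 8 Cajal-Retzius genes and 69.8% near the 10 deep-layer neuron genes. High shares were not limited to neural lists: it was 96% near the liver and muscle genes (24 against 1 region), 73.1% near the endothelial, 72.7% near the choroid plexus and 70.4% near the glycolysis and lactate genes. Near the radial glia genes it was 43.0%, near the ribosomal protein genes 39.6% and near the acyltransferase genes 18.2%. Of the axon guidance genes, Unc5a and Sema3a, guidance receptor and ligand, were H3K18la only at their gene ends, with fold enrichments of 3.74 and 4.13 at Unc5a and 3.95 and 3.98 at Sema3a. At 34520 peaks a list neither gene was called in any list, and with a window of 5000 bp Unc5a was called in all 4. With start sites Unc5a was called by both marks and Sema3a by H3K9ac only. Regions near the same gene are not independent, and the width of the stretch around a gene was not taken into account.

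The genes that held most H3K18la-only regions were long. The gene bodies with the most, named after their values were seen, were Lrmda with 38, Dab1 (the Reelin adaptor) with 37, Wwox with 35, Auts2 with 34, Tenm3 with 32 and Ntm with 30. The same gene bodies held 6, 14, 9, 37, 15 and 9 regions of both marks. Of the 30 gene bodies with most H3K18la-only regions, 28 spanned over 500 kb, a length reached by 227 protein-coding genes. The span of a gene thus moved with this count, and its part was not tested. Stretches of 1 Mb with 0 to 5 gene starts held 52.1% of H3K18la-only regions and made up 51.8% of all 1 Mb stretches. They held 26.4% of regions of both marks and 18.4% of H3K9ac-only regions.

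Chromosome X held few H3K18la-only regions. The density there was 1.13 per Mb, against 7.87 on chromosomes 1 to 19 together. Regions of both marks stood at 3.19 per Mb against 9.75, and H3K9ac-only regions at 0.773 against 0.884. The number of H3K18la-only regions per region of both marks was 0.354 on X and between 0.604 and 0.956 on the autosomes, so X lay outside their range. The sex of the embryos is not given in the labels used here.

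**Figure D5:**
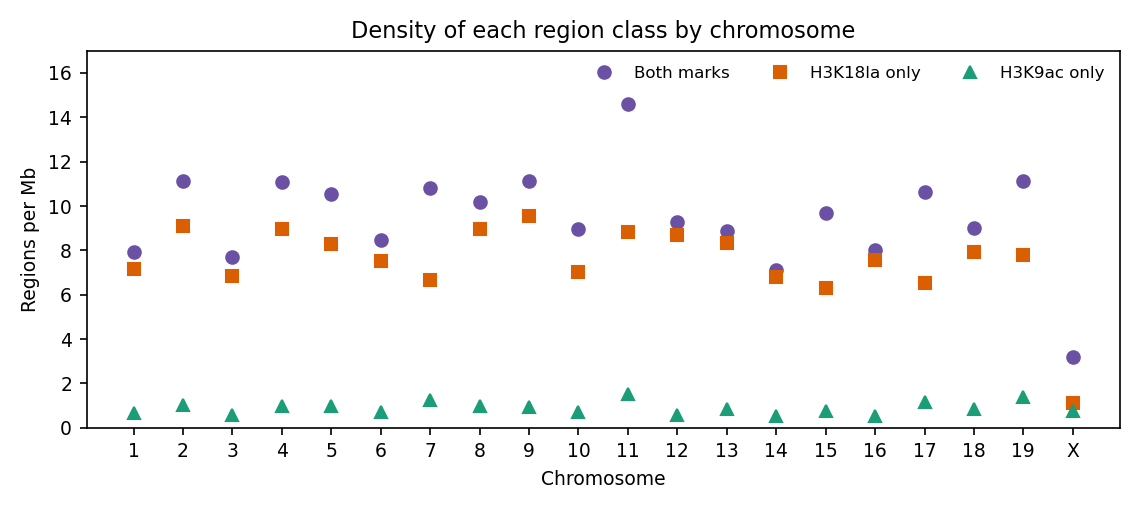
Regions per Mb on each chromosome for regions of both marks (purple circles), H3K18la only (orange squares) and H3K9ac only (green triangles). On chromosome X the density of H3K18la-only regions is 1.13 per Mb and that of H3K9ac-only regions 0.773 per Mb.

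All 5 telencephalon markers were at 1 CPM or more in both E13.5 libraries, with summed levels of 1905 and 1779 CPM, and none of the 4 midbrain and hindbrain markers was. Both astrocyte markers and all 3 choroid plexus markers were under 1 CPM in at least 1 library. The 3 pericyte markers were detected, with summed levels of 53.3 and 52.9 CPM, as were 3 of 4 microglia markers, with 36.1 and 33.8 CPM. All 4 endothelial markers (72.7 and 81.8 CPM summed) and 3 of 5 blood markers (365 and 436 CPM) were also detected. Meningeal markers summed to 10.4 and 25.6 CPM and choroid plexus markers to 0.645 and 8.53 CPM, so the 2 libraries differed there. The part of these cells in the results was not tested.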

How the data were processed

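Native ChIP-seq, ATAC-seq and RNA-seq files of E13.5 and E16.5 mouse telencephalon were used as deposited. Per the submitters' processing notes, the tools named are Bowtie2 2.4.1, MACS2 2.2.7.1, Salmon 1.1.0 and DESeq2 1.26.0, with the build GRCm38. The settings and control of the peak caller are not stated there, and the sequencing depth behind the peak lists is unknown. Per the file headers, the authors' peak lists give 1 list per library, with the pileup signal at the summit, −log10 of the p-value and q-value, and fold enrichment, a ratio over background. The authors deposited RNA as estimated counts per gene, which were divided by the library total to give CPM. The authors' deposited comparison table gives log2 fold changes and adjusted p-values between E16.5 and E13.5, which were not refitted.

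Peaks on chromosomes 1 to 19 and X were kept, and 48 of the 4 lists on other sequences were left out. Overlaps needed 1 bp. Gene ends came from 21631 RefSeq protein-coding genes, and start sites from the RefSeq promoter table of GRCm38.p6, with 21045 entries for 17274 genes on 19 of the 20 chromosomes. Start-site values use those 19. Overlap and rank code was tested on simulated intervals. Python 3.11.15, pandas 2.3.3, numpy 2.4.6, scipy 1.17.1 and matplotlib 3.10.9 were used.

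Named regions and genes are the 10 shared regions at gene ends with the largest rank difference in each direction and no overlap between marks, the 6 strongest regions of each single-mark class, the 6 genes with most RNA in the H3K18la-only, H3K9ac-only and uncalled classes, up to 2 genes per list and class, and 31 preset genes; some genes that this rule names are not reported here. The members and the 28 gene lists were chosen with earlier results of these data known. Alternatives were equal list length, a stricter q, other windows, other rank measures, a larger overlap and leaving out each list. Start sites in place of gene ends, and bands of width, strength and place, were chosen after seeing the data.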

Additional observations from a re-analysis of the deposited data

How the results depend on the processing

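No paired analysis was possible because the results come from peak lists and counts with no fitted model, and with 2 lists a mark the exact permutation test cannot pass 0.05. Of 236 alternative values of the main results, 111 stayed within the spread or 1.5 times and 1 reversed; where others moved, the cause was not tested. The reversal was the median width difference, H3K18la minus H3K9ac, of -302.5 bp, which was 239.75 bp at 34520 peaks a list. At that length single-mark regions numbered 4817 for H3K18la and 5645 for H3K9ac, the shared shares were 72.9% and 69.4%, the gene-end share difference was -11.1 percentage points, the median distance difference 13199 bp, and single-mark genes 80 and 2521. For both marks, H3K18la only and H3K9ac only, ATAC was then 53.8%, 11.6% and 29.6% and genes at 1 CPM 92.2%, 27.5% and 69.3%. With −log10 q of at least 5, the H3K9ac share was 80.6%, the width difference -228.25 bp, the distance difference 21759 bp, ATAC 54.1%, 7.48% and 27.9%, genes at 1 CPM 91.9%, 27.3% and 63.9%, H3K9cr 89.0% for both marks and 0.953% for H3K18la only, and start sites near 40.2% of regions of both marks. Windows of 1000 and 5000 bp gave gene-end differences of -17.0 and -20.3 points. Start sites gave 133 H3K18la-only genes, with 1 CPM in 93.8% of genes of both marks and 10.6% of H3K18la-only genes. In regions 500 to 1000 bp wide ATAC was 28.1% for both marks and 2.72% for H3K18la only, and H3K9cr 71.1% for both. At H3K18la fold enrichment 5 to 7 these were 43.0%, 7.98% and 78.2%. At H3K9ac fold enrichment 5 to 10, regions of both marks had ATAC at 27% and H3K9cr at 76.9%. In distal regions ATAC was 31.8% for both and 12.3% for H3K9ac only, and H3K9cr 70.4% and 72.6%. Ranking by −log10 q put H3K18la higher in 10.8% and H3K9ac in 77.1% of start-site regions, H3K9ac in 12.7% of distal regions and H3K18la in 41.8% of all. Ranking by pileup gave 11.1% and 77.9% at start sites, 68.9% and 13.3% in distal regions and 42.8% and 42.3% in all. Whole-list percentiles gave 23.1% and 46.2%, 83.7% and 3.52%, and 56.7% and 22.4%. Regions 1000 to 2000 bp wide gave 30.5% and 44.9%, with a rho of 0.260 between mean ranks.

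Leaving out each list in turn means that fewer lists must agree. Regions then ranged over 21429 to 39558 for H3K18la only and 3032 to 4150 for H3K9ac only, the shared shares over 38.3% to 57.3% and 81.1% to 89.8%, and genes over 288 to 407 and 1036 to 1532. The width difference ranged from -347.5 to -257.5 bp and the distance difference from 23419 to 26833 bp. H3K18la ranked higher in 11.6% to 14.1% and H3K9ac in 77.4% to 81.3% of start-site regions, in 65.8% to 73.8% and 15.6% to 17.5% of distal regions, and in 43.9% to 46.5% and 41.2% to 46.1% of all, with rho from 0.302 to 0.403. In the order both marks, H3K18la only and H3K9ac only, ATAC ranged over 45.6% to 49.1%, 2.04% to 5.37% and 13.4% to 25.7%. H3K9cr ranged over 75.6% to 83.5%, 0.197% to 1.24% and 59.3% to 86.0%, and start sites over 34.2% to 38.3%, 1.56% to 1.75% and 39.0% to 50.8%. Genes at 1 CPM ranged over 89.9% to 90.7%, 19.9% to 22.4% and 52.8% to 62.5%. All 160 rank differences of named regions kept their sign. These regions were chosen for the largest differences, and the alternatives reuse the same lists. The unchanged sign was therefore close to fixed by the choice and is no test of these regions. The size of the difference moved for some of them, and its spread with each list left out was largest at Ythdf1. Of the list counts of named genes 213 of 244, and of the gene lists 23 of 28, stayed the same or within 1.5 times.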
